A study of Mus musculus with 12 samples.

Results

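The subunits of the mitochondrial respiratory chain and ATP synthase were described in the transcriptome of Pdgfra+ (CD140a+) cells sorted from mouse lung. The members were the protein-coding rows whose symbol began with Nduf, Uqcr, Cox4 to Cox8, Atp5 or mt-, or was Sdha, Sdhb, Sdhc or Sdhd. They numbered 105 of 40760 genes in the table. Of these, 92 were encoded in the nucleus and 13 in mitochondrial DNA. The 4 groups were WT mice given vehicle, Pear1-/- mice given vehicle, WT mice given bleomycin (bleo) and Pear1-/- mice given bleo, with 3 libraries in each group and 12 in all. All mice were male, and the study's general methods give a C57BL/6 background, an age of 8 to 12 weeks and bleo delivered as an intratracheal aerosol, whereas the age, dose and time for these libraries were not given in the sources used here. Bleo breaks DNA and scars the lung, and PEAR1 is a receptor on the cell surface. The Pear1-/- allele is a knockout-first allele with a reporter cassette inside an intron, carried in every cell of the mouse. The number of mice behind each library was not given in the sources used here, so the p-values measure the spread between libraries, which may be technical.

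The respiratory chain lies in the inner mitochondrial membrane. Complex I (NADH dehydrogenase) and complex II (succinate dehydrogenase) pass electrons to ubiquinone, complex III (cytochrome bc1) passes them on to cytochrome c, and complex IV (cytochrome c oxidase) passes them to oxygen. Complexes I, III and IV pump protons, and complex V (ATP synthase) uses the proton gradient to make ATP. Every complex but complex II is built from subunits of both genomes. The nuclear genes are transcribed singly and their proteins are imported, whereas the mitochondrial genes are transcribed as long polycistronic RNAs from both strands of the circular genome and are then cut into separate messages. Some subunits of complex IV come as a common form and a form restricted to certain tissues, such as heart and skeletal muscle.

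Total counts ran from 6702948 to 10447101 per library, and 102 members (89 nuclear and 13 mitochondrial) passed the filter on low counts. The other 3, Cox7a1, Cox7b2 and Cox8c, had at most 10, 6 and 24 counts in any library. Pear1 did not follow the genotype labels. It was at 61.6 ± 3.17 CPM (counts relative to the scaled library total, mean ± SD over 3 libraries) in the WT group and 58.3 ± 2.75 in that labelled Pear1-/- after vehicle (adjusted p = 0.47). After bleo it was higher in the group labelled Pear1-/-, at 40.2 ± 1.73 CPM, than in WT, at 28.8 ± 1.64 (log2 difference 0.48, adjusted p = 0.00012), with no overlap, which goes against the label. A single count per gene cannot separate RNA before and after the inserted cassette, so the genotype rests on the labels. Pdgfra, the gene used for the sort, fell after bleo from 514 ± 38.5 to 154 ± 3.75 CPM in WT and from 467 ± 3.87 to 269 ± 2.29 in Pear1-/-. The summed CPM of 12 leukocyte markers was 6119 to 7329 for WT and 7158 to 7950 for Pear1-/- after vehicle, and after bleo it was 30349.7 to 31423 for WT and 13465 to 13906 for Pear1-/-, and every one of the 12 had more than 3 counts in some library of each group. Of these markers 10 rose and 1 fell in WT, and 8 rose and 3 fell in Pear1-/-. Fibroblast markers, 7 genes with Pdgfra among them, summed to 9248 to 11765, 11835 to 12103, 8689 to 8741 and 24385 to 25198 CPM in the same order, but moved both ways. Col1a1 and Col1a2 had log2 fold changes of 2.18 and 1.53 in Pear1-/- after bleo, whereas Dcn, Lum, Tcf21 and Pdgfra fell, and in WT 5 of the 7 fell. Epithelial markers, 7 genes, summed to 4686 to 6728, 6380 to 7420, 1766 to 1800 and 756 to 768 CPM, with 5 lower and 2 higher in WT and 6 lower and 1 higher in Pear1-/-, Cdh1 being higher in both. Plasma cell markers, 4 genes, summed to 9652 to 17333, 16614 to 20049.5, 1423 to 1505 and 8758 to 8989 CPM (0 higher and 3 lower in WT, 1 and 3 in Pear1-/-), and endothelial markers, 5 genes, to 281 to 336, 319 to 365, 164 to 172 and 170.2 to 181, with all 5 lower in both. Ciliated cell markers, 3 genes, summed to 18.7 to 21.7, 16.5 to 19.9, 3.11 to 4.16 and 2.71 to 3.81 CPM, with all 3 lower in both, and erythroid markers, 5 genes, to 14.5 to 33.7, 29.9 to 35.8, 7.84 to 9.14 and 30.7 to 33.1, with 3 lower in WT and 1 higher and 2 lower in Pear1-/-. Marker RNA of several cell types in the sorted material thus moved with the groups. The part of these cell types in every result on the chain was not tested. In such bulk samples fewer cells of a type and less RNA per cell cannot be told apart. Among the vehicle libraries, WT replicates 1 and 3 had 25994 and 26625 genes with at least 4 counts, whereas replicate 2 had 20643, close to the 19576 to 20792 of Pear1-/- vehicle. Replicate 2 also stood apart in Dcn, at 2193, 4515 and 2243 CPM in WT vehicle against 4467 to 4729 in Pear1-/- vehicle, and in Jchain, at 8920, 16216 and 9885 CPM against 15502 to 18916. By these values the library labelled WT vehicle replicate 2 lay with or near the Pear1-/- vehicle libraries, and whether its label is right was not tested.

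The nuclear and the mitochondrial part of the chain moved in opposite directions after bleo. After vehicle, the 92 nuclear genes took 0.593 to 0.613% of all counts for WT and 0.586 to 0.635% for Pear1-/-, and after bleo 0.848 to 0.865% and 0.898 to 0.907%. The 13 mitochondrial genes took 2.07 to 2.43% and 1.85 to 2.22% after vehicle, and 1.43 to 1.47% and 1.20 to 1.30% after bleo. No bleo library overlapped a vehicle library in either share. The ratio of mitochondrial to nuclear counts was 3.74 ± 0.359 for WT and 3.48 ± 0.488 for Pear1-/- after vehicle, and 1.69 ± 0.0109 and 1.38 ± 0.0528 after bleo (mean ± SD, n = 3). Both vehicle groups overlapped in this ratio, and the bleo groups did not. The 5 mitochondrial genes that have little sequence in common with nuclear copies took 1.32 ± 0.122%, 1.19 ± 0.116%, 0.780 ± 0.0104% and 0.617 ± 0.0279% of counts in the same order.

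**Figure D1:**
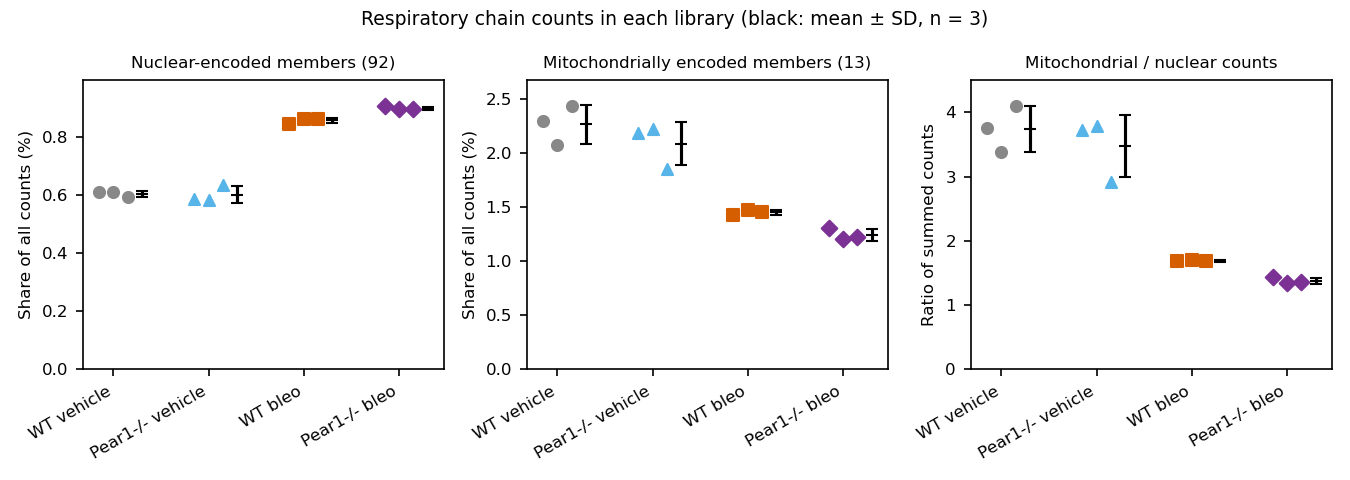
Summed counts of the 92 nuclear and the 13 mitochondrially encoded members as a share of all counts (%), and the ratio of the 2 sums, with 1 point per library in each of the 4 groups and the mean ± SD (n = 3) in black. The nuclear share is higher and the mitochondrial share lower in all 6 bleo libraries than in all 6 vehicle libraries, and the ratio drops from means of 3.74 and 3.48 to 1.69 and 1.38.

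In WT cells most nuclear subunits of all 5 complexes rose after bleo. Of the 89 nuclear members tested, 75 were higher and 4 lower at an adjusted p under 0.05 (edgeR), with a median log2 fold change of 0.60. Across all 17418 genes tested the corresponding shares were 31.4% higher and 36.6% lower and the median was -0.07. Among the 8428 genes whose mean log2 CPM was 4 or more, the range of most members, 45.9% were higher. Of the 89 nuclear members, 9 rose by more than 2-fold, a share close to the 10.5% of all genes that did so. Complex V had 15 of 15 higher and a median of 0.83. Complex III had 8 of 8 higher (median 0.64), complex I 32 of 36 (median 0.53), and complex II 3 of 4 (median 0.67). In complex IV, 11 of 17 rose and 4 fell, and without the 5 tissue-restricted forms 11 of 12 rose (median 0.84). Of the assembly factors of complex I named Ndufaf, 5 of 7 rose.

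**Figure D2:**
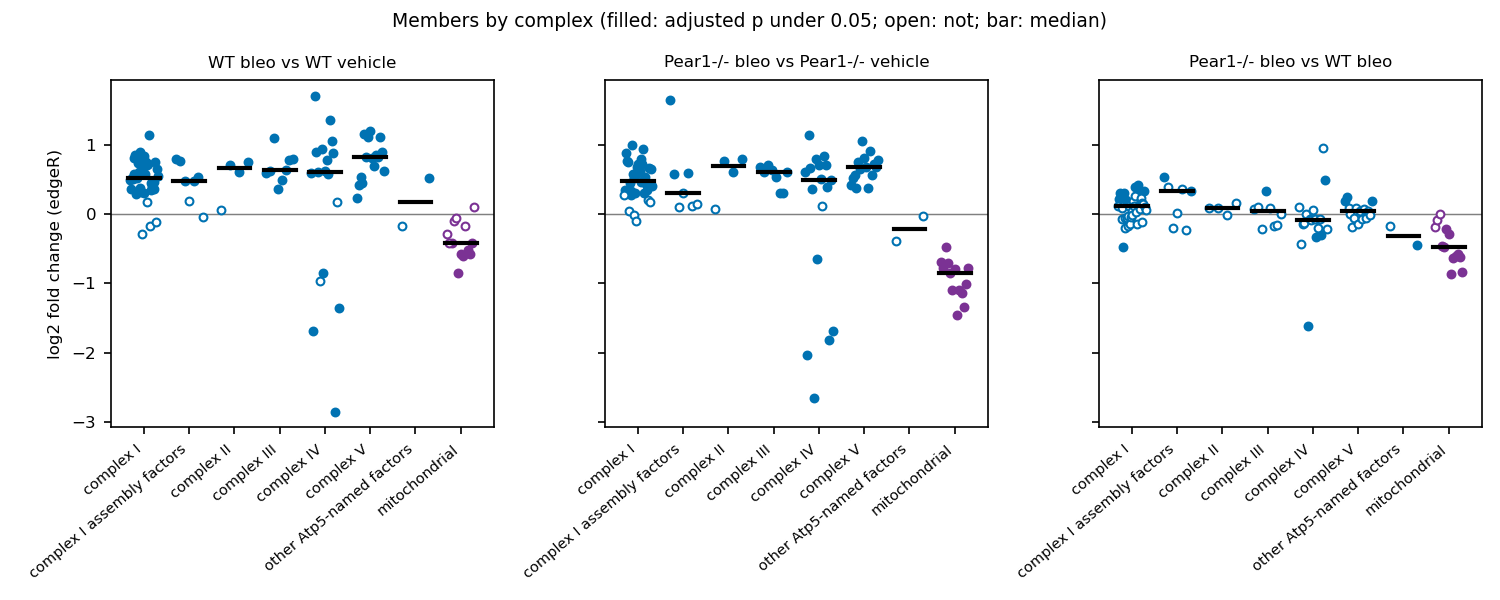
Fitted log2 fold change of each member tested (y axis) by complex (x axis, with the 13 mitochondrial genes of all complexes at the right) in 3 comparisons, with filled points for an adjusted p under 0.05 (edgeR), open points for the others and a bar at the median. The nuclear complexes lie mostly above 0 and the mitochondrial genes below it after bleo in both genotypes, with medians of 0.60 and -0.41 in WT and 0.54 and -0.84 in Pear1-/-.

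Subunits with a high level showed the size of the rise, and where it was absent. Atp5b, the catalytic beta subunit of ATP synthase, was at 608, 684 and 593 CPM in WT vehicle and 851, 857 and 835 in WT bleo. The libraries did not overlap (log2 fold change 0.43 ± 0.0614 (SE), adjusted p = 1.80e-05). Cox4i1, the common form of the largest nuclear subunit of complex IV, went from 202, 222 and 184 to 302, 316 and 307 CPM (0.60 ± 0.0843 (SE), adjusted p = 1.49e-05). Uqcrc1, a core protein of complex III, went from 157, 159.7 and 138 to 194, 196 and 198 (0.37 ± 0.0803 (SE), adjusted p = 0.000801). In both the highest vehicle library lay below the lowest bleo library. Sdha, the flavoprotein of succinate dehydrogenase, was an exception. It was at 227, 241 and 222 CPM in WT vehicle and 243, 238 and 238 in WT bleo, and the groups overlapped (log2 fold change 0.06 ± 0.0695 (SE), adjusted p = 0.451). Its partners Sdhb, Sdhc and Sdhd rose by 0.72, 0.62 and 0.75 on the log2 scale. Also without a call in WT were Ndufa4, Ndufb2, Ndufb9, Ndufs1 and Ndufv1, with log2 fold changes from -0.29 to 0.19.

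The largest rises in WT were in small nuclear subunits of complexes IV, V and I. Cox5a (GRCm38 chr9:57521274-57532426), a nuclear subunit on the matrix side of complex IV, was at 10.5, 10.3 and 9.06 CPM in WT vehicle and 32.1, 33.4 and 33.2 in WT bleo. All 3 bleo libraries lay above the vehicle ones, a 3.29-fold rise (log2 fold change 1.72 ± 0.145 (SE), adjusted p = 6.53e-08). Cox7b, another small subunit of complex IV, went from 42.9, 58.8 and 42.7 to 125, 125 and 125 CPM (1.37 ± 0.116 (SE), adjusted p = 6.40e-08). For complex V, Atp5g2, 1 of 3 genes for the proton-carrying c subunit of the rotor, went from 35.5, 45.4 and 36.3 to 91.4, 88.4 and 90.6 (1.20 ± 0.0864 (SE), adjusted p = 9.90e-09). Atp5e, the epsilon subunit of the central stalk, went from 51.1, 57.3 and 48.2 to 114, 112 and 125 (1.16 ± 0.0904 (SE), adjusted p = 2.52e-08). In none of these 3 did a vehicle library reach a bleo library. Ndufc2, an accessory subunit of complex I, went from 29.7, 37.2 and 29.8 to 72.7, 73.3 and 69.4 (1.15 ± 0.0947 (SE), adjusted p = 4.68e-08). Its groups did not overlap either. The other c subunit genes, Atp5g1 and Atp5g3, whose mature protein is the same, rose by 1.12 and 0.81 on the log2 scale in WT and by 1.07 and 0.69 in Pear1-/-, beside 0.81 for Atp5g2.

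The other members of each complex followed by and large. In complex V, the F1 subunits Atp5a1 (alpha), Atp5c1 (gamma), Atp5d (delta) and Atp5e (epsilon) rose by 0.24, 0.54, 0.46 and 1.16 on the log2 scale in WT. The stator genes Atp5o, Atp5f1, Atp5h and Atp5j rose by 0.63, 0.83, 0.70 and 0.87. The small membrane subunits Atp5l, Atp5j2 and Atp5k, of which the first and the last sit where synthases form dimers, rose by 0.91, 0.83 and 1.12. In complex III the largest rise was in Uqcrb, a small subunit at the ubiquinone site, from 61.7, 76.2 and 57.0 to 137, 137 and 145 CPM (1.10 ± 0.0941 (SE), adjusted p = 7.17e-08). The groups did not overlap. Uqcrfs1, the Rieske iron-sulphur protein, rose by 0.65, and Uqcrh, the hinge protein, by 0.78. In complex I, 2 subunits of the module that takes electrons from NADH did not follow. Ndufv1, which binds NADH, was at 83.0, 93.8 and 76.4 CPM in WT vehicle and 79.3, 79.9 and 76.1 in WT bleo, and Ndufs1 at 57.5, 56.2 and 64.1 and 52.1, 56.9 and 48.9. Neither passed the test and both overlapped (log2 fold changes -0.11 and -0.17), whereas Ndufv2, Ndufs3, Ndufs7 and Ndufs8 of the same core rose by 0.66, 0.35, 0.36 and 0.75. Per kilobase of exon in WT vehicle, Cox8a at 191 CPM, Cox6a1 at 169 and Atp5b at 148 were the highest nuclear members, and Cox5a at 4.75 was among the low ones.

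In Pear1-/- cells the nuclear chain rose to a similar extent. Of 89 nuclear members 70 were higher and 5 lower (median log2 fold change 0.54), against 28.9% and 33.4% of all genes (median -0.05). All 15 members of complex V and all 8 of complex III were higher again, with 30 of 36 in complex I, 3 of 4 in complex II and 11 of 17 in complex IV, where the other 5 called were lower. Of the assembly factors of complex I named Ndufaf, 3 of 7 were higher (median 0.30). Among these Ndufaf1 had the largest rise of all nuclear members. It was at 4.04, 4.26 and 4.29 CPM in Pear1-/- vehicle and 14.3, 12.3 and 13.1 in Pear1-/- bleo, a 3.14-fold rise (log2 fold change 1.65 ± 0.142 (SE), adjusted p = 1.05e-07). In WT the same gene went from 5.60, 4.44 and 5.57 to 8.64, 9.37 and 9.22 CPM (0.81 ± 0.146 (SE), adjusted p = 0.000178), so that the Pear1-/- bleo libraries were the highest of the 4 groups. Cox5a went from 10.2, 13.3 and 17.2 to 32.1, 30.5 and 27.0 CPM in Pear1-/- (1.15 ± 0.137 (SE), adjusted p = 3.82e-06). Its 3 vehicle libraries were spread more widely than in WT, with replicate 3 highest, yet none reached a bleo library. Ndufa8, an accessory subunit of complex I, went from 28.6, 29.9 and 32.8 to 63.8, 60.2 and 59.7 (1.01 ± 0.0761 (SE), adjusted p = 2.54e-08), and Atp5g1 from 51.8, 48.2 and 53.3 to 107, 105 and 109.8 (1.07 ± 0.0719 (SE), adjusted p = 6.67e-09). Ndufc2 went from 31.7, 38.0 and 32.4 to 65.7, 64.0 and 66.7 (0.94 ± 0.0932 (SE), adjusted p = 5.24e-07). No library of a vehicle group overlapped the bleo group in these 3 genes.

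**Figure D3:**
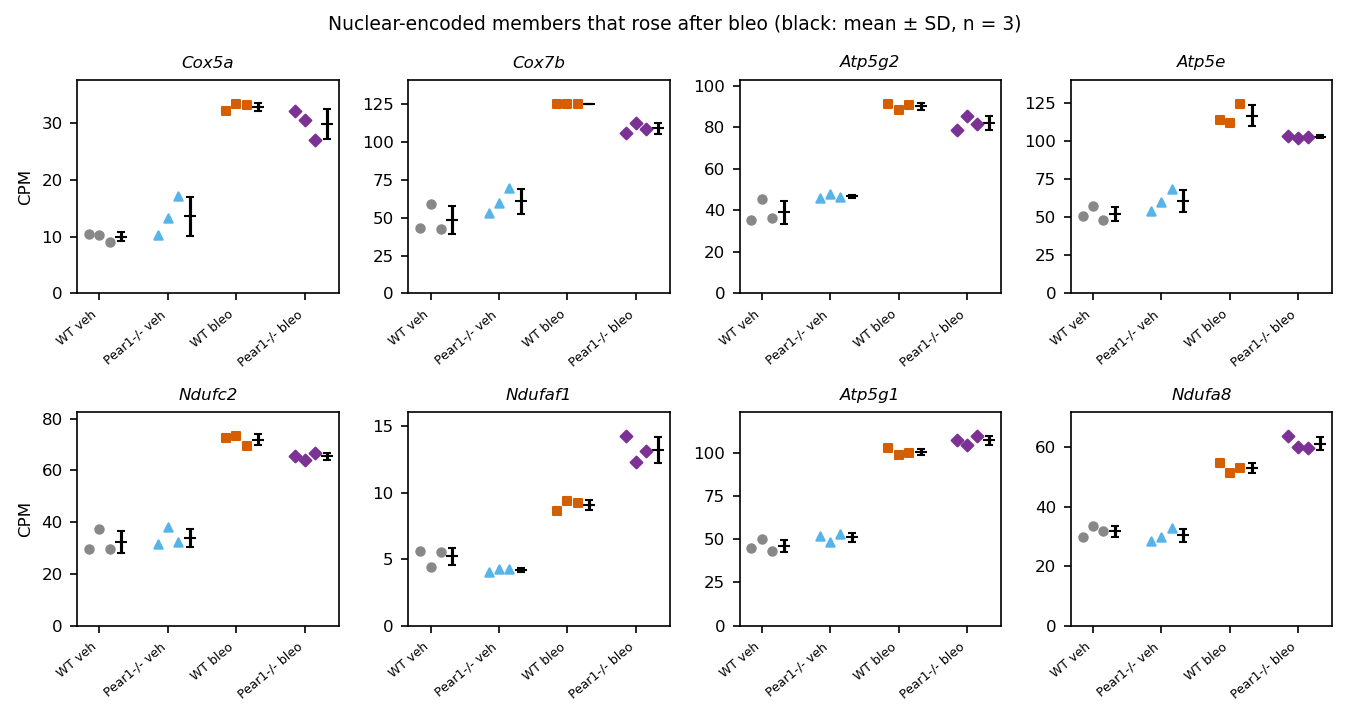
CPM of 8 nuclear-encoded members named for a rise after bleo, with 1 point per library in the 4 groups and the mean ± SD (n = 3) in black; each y axis starts at 0. The bleo libraries lie above the vehicle libraries of the same genotype in all 8 genes, and Ndufaf1 is highest in Pear1-/- bleo.

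Promoter sequences of the nuclear members were searched for 3 short motifs that are textbook landmarks of respiratory chain promoters. Windows of 250 bases before to 50 bases after the start site (RefSeq, GRCm38.p6) were at hand for 76 of the 92 nuclear members, 73 matched by symbol and 3 by an older symbol. The palindrome GCGCATGCGC of NRF1 stood in 7 of the 76 (9.21%), against 1.07% of 27025 genes with such windows, on either strand. The letters CCGGAAG of the GABPA (ETS) motif stood in 17 (22.4%, against 9.93%), and AAGATGGC of the YY1 motif in 11 (14.5%, against 3.19%). In all, 32 members held at least 1 of the 3 and 3 held a pair, with no bases in common. These are matches of letters and do not show binding. Stretches that end 0 to 32 bases before the start site are shown, 5′ to 3′ on the strand of the gene, for 2 members with the NRF1 letters, 2 with the GABPA letters, 1 with the YY1 and GABPA letters and, for contrast, the gene that rose most in WT, with matched letters in capitals:

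Atp5g2 chr15:102671048-102671127 (-): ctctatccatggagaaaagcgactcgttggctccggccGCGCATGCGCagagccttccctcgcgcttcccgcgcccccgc

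Cox6a1 chr5:115348981-115349130 (-): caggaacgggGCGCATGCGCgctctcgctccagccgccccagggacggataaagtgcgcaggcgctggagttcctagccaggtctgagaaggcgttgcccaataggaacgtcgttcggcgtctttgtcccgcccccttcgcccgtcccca

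Ndufaf1 chr2:119662835-119662914 (-): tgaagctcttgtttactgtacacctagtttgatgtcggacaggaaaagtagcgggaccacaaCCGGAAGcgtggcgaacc

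Atp5e chr2:174464134-174464213 (-): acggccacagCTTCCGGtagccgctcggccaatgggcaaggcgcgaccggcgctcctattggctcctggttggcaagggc

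Atp5j chr16:84834995-84835074 (-): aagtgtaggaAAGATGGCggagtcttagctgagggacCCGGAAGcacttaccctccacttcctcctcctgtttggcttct

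Cox5a chr9:57521142-57521221 (+): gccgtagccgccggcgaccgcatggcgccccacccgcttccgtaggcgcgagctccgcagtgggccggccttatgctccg

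Of these, Atp5g2 and Cox6a1 hold the NRF1 letters (Cox6a1 also holds the GABPA letters, outside the stretch shown), Ndufaf1 and Atp5e the GABPA letters, the latter on the opposite strand, and Atp5j, coupling factor 6 of the ATP synthase stalk, the YY1 and then the GABPA letters. The stretch of Cox5a holds none of the 3. The 17 members with GABPA letters were all higher after bleo in WT (median log2 fold change 0.76) and in Pear1-/- (median 0.68). Among the 57 tested without these letters, 48 rose and 2 fell in WT (median 0.54), and 42 rose and 2 fell in Pear1-/- (median 0.53). With the NRF1 letters 6 of 7 rose in WT (median 0.53) against 59 of 67 without (0.65), and 6 of 7 in Pear1-/- (0.65) against 53 of 67 (0.57). With the YY1 letters 11 of 11 rose in WT (0.71) against 54 of 63 without (0.63), and 8 of 11 in Pear1-/- (0.57) against 51 of 63 (0.59). In each genotype 2 members without the letters fell and 0 with them, for either motif. These 2 were Cox6b2 and Cox8b, also for the GABPA letters. Cox8b passed the filter on low counts through the vehicle libraries, so its fall supports nothing.

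Of the tissue-restricted forms of complex IV subunits, Cox4i2, Ndufa4l2 and Cox6b2 were lower after bleo in both genotypes, as were 36.6% of all genes in WT and 33.4% in Pear1-/-. Cox4i2 (GRCm38 chr2:152754173-152765037), the lung-enriched and oxygen-responsive partner of Cox4i1, was at 6.42, 5.57 and 4.01 CPM in WT vehicle and 1.35, 2.08 and 1.50 in WT bleo (log2 fold change -1.70 ± 0.307 (SE), adjusted p = 0.000176). In Pear1-/- it was at 3.93, 4.78 and 6.50 in vehicle and 1.71, 0.872 and 1.07 in bleo (-2.04 ± 0.315 (SE), adjusted p = 4.98e-05). Each bleo library lay below each vehicle library, and the fall rests on 9 to 53 counts per library. Per kilobase of exon, Cox4i2 was at 6.77 CPM in WT vehicle, beside 131 for Cox4i1. Ndufa4l2 (chr10:127514967-127517154), a hypoxia-induced relative of the complex IV subunit Ndufa4, went from 6.29, 9.78 and 6.86 to 2.81, 2.89 and 3.34 in WT (-1.35 ± 0.224 (SE), adjusted p = 7.96e-05) and from 7.23, 8.21 and 9.81 to 3.11, 2.13 and 2.56 in Pear1-/- (-1.69 ± 0.221 (SE), adjusted p = 1.02e-05). Its groups did not overlap in either genotype. Ndufa4 itself had a log2 fold change of 0.18 in WT (adjusted p = 0.0756), where it missed the test, and rose by 0.49 in Pear1-/-. Cox6b2, a form known from testis, went from 19.1, 14.1 and 17.9 to 9.16, 9.72 and 9.45 CPM in WT (-0.85 ± 0.148 (SE), adjusted p = 0.000128) and from 13.6, 14.3 and 14.2 to 8.93, 7.27 and 10.8 in Pear1-/- (-0.65 ± 0.148 (SE), adjusted p = 0.00142), while its common form Cox6b1 rose by 0.94 and 0.80 on the log2 scale.

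The muscle forms Cox6a2 and Cox8b sat near the limit of detection. Cox6a2 had 9 to 24 counts in the vehicle libraries, 4 to 12 in WT bleo and 1 to 5 in Pear1-/- bleo. Cox8b had 4 to 15 counts in vehicle libraries and 0 to 5 in bleo libraries. Both passed the filter on low counts through the vehicle libraries, where they were high, so the test of bleo supports nothing for them, although Cox8b is among the lower calls in WT and both are in Pear1-/-. Their common forms Cox6a1 and Cox8a rose by 0.61 and 0.89 in WT and by 0.37 and 0.39 in Pear1-/-. Of the Cox7a family, Cox7a2 rose by 0.78 and 0.52, and Cox7a2l, a relative of Cox7a2, rose in WT (0.58) but missed the test in Pear1-/- (0.12, adjusted p = 0.238). Beside these counts, 5 muscle markers summed to 57.4 to 61.5 CPM for WT and 58.2 to 65.3 for Pear1-/- after vehicle, and to 11.6 to 13.02 and 19.6 to 20.1 after bleo, where 3 and 2 of the 5 had at most 3 counts in each library. Actc1 fell by 2.79 and by 3.58 on the log2 scale in WT and Pear1-/-, whereas Tnnt2 of the same list was at 0.07 in WT and rose by 3.02 in Pear1-/-. Pericyte markers, 7 genes chosen after the values of Cox4i2 and Ndufa4l2 were seen, summed to 357 to 437, 432 to 470.4, 204 to 218 and 359 to 383 CPM. They moved both ways, with 4 lower and 1 higher in WT and 4 lower and 2 higher in Pear1-/-. Abcc9 had log2 fold changes of -2.05 and -2.59 and Kcnj8 of -1.41 and -0.84, against 0.74 and 1.41 for Cspg4 and -0.44 and 0.48 for Pdgfrb, which is also in the fibroblast list. The part of these cells in the lower values was not tested.

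**Figure D4:**
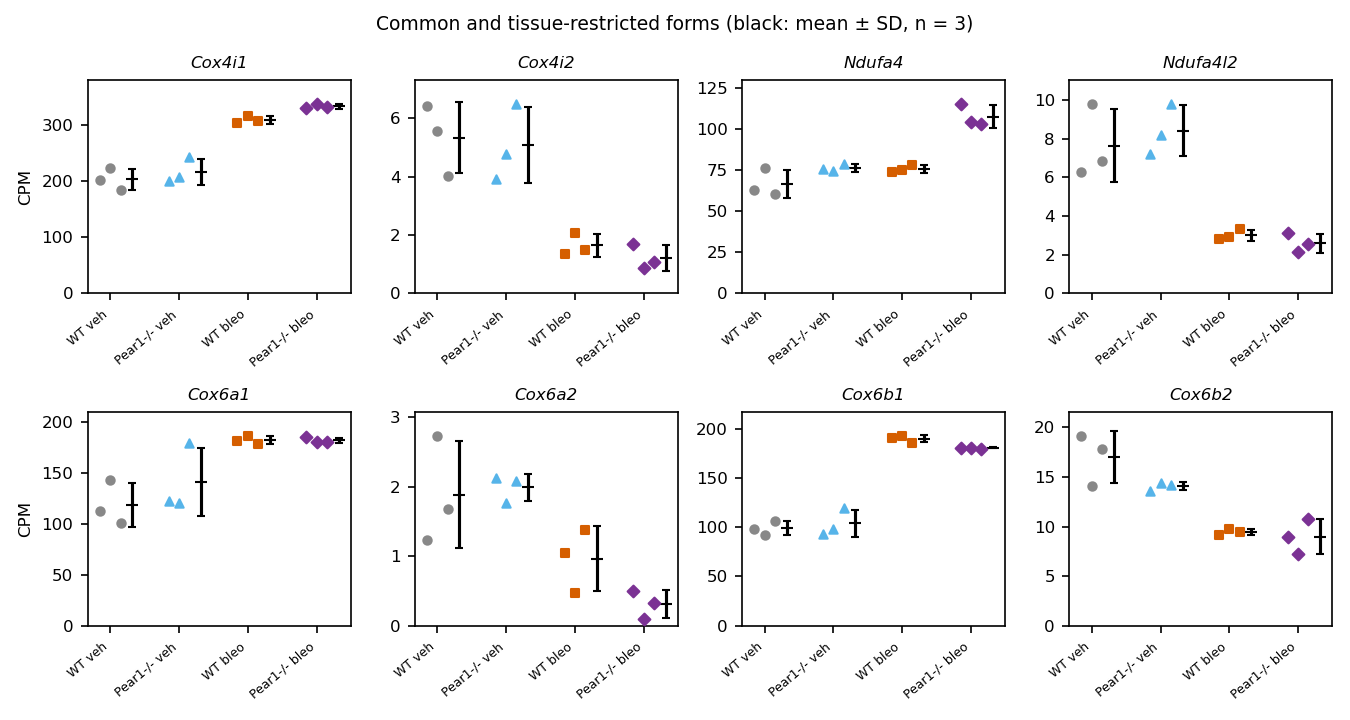
CPM of 4 pairs of complex IV genes, the common form on the left of each pair and the restricted form on the right, with 1 point per library in the 4 groups and the mean ± SD (n = 3) in black; each y axis starts at 0. Cox4i2, Ndufa4l2 and Cox6b2 are lower in every bleo library than in every vehicle library of the same genotype, whereas Cox4i1, Cox6a1 and Cox6b1 are higher.

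The 13 mitochondrial genes cover 7 subunits of complex I, cytochrome b of complex III, 3 subunits of complex IV and 2 of complex V. Before their values, their sequence limits what can be read from the counts. Copies of a stretch of mitochondrial DNA lie in the nuclear genome on chromosome 1. Of all 100-base words in mt-Atp6, mt-Co2, mt-Co3, mt-Nd3 and mt-Nd4l, 97.6 to 99.9% were also found in another annotated gene, in mt-Nd4 60.8% and in mt-Co1 30.8%. The aligned copies of mt-Co2, mt-Atp6, mt-Co3 and mt-Nd4l were identical over their length, and that of mt-Nd3 differed at 1 of 345 bases. The first 60 bases of mt-Nd3 (chrM:9459-9518, GRCm38) and of its copy Gm28438 (within chr1:24612775-24613119) show the difference in capitals:

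mt-Nd3: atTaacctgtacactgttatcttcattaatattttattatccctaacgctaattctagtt

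Gm28438: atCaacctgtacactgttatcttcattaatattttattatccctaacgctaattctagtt

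Copies of these 5 genes held 30.1 to 61.9% of the summed counts of gene and copy, and those of mt-Co1 and mt-Nd4 held 1.11 to 2.70%. Counts of the 5 genes are therefore uncertain in level. mt-Nd1, mt-Nd2, mt-Nd5, mt-Nd6 and mt-Cytb shared under 5% of their words with any other gene. mt-Atp8 shared none, but only annotated genes were searched, and it lies between mt-Co2 and mt-Atp6, whose copies are neighbours on chromosome 1 with an unannotated gap between them, so it was counted with the uncertain genes. It also overlaps mt-Atp6 by 43 bases (chrM:7927-7969), in which a read cannot be given to one gene:

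mt-Atp8 and mt-Atp6: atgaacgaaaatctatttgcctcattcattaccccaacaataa

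The levels of the mitochondrial genes differed widely within 1 genome. Per kilobase of exon in WT vehicle, mt-Cytb was at 5283 CPM, mt-Co1 at 4453, mt-Nd1 at 3996 and mt-Nd4 at 1257, and the 5 genes with near-complete copies were at 28.6 to 173. For comparison, the median nuclear member was at 28.9 CPM per kilobase. mt-Nd6, the 1 gene of the 13 on the other strand, was at 251, and its reads cannot be told apart from antisense RNA of its neighbours since the library kit does not mark strand. mt-Nd4l and mt-Nd4 overlap by 7 bases, and the end of mt-Nd5 (chrM:11742-13565) overlaps mt-Nd6 (chrM:13552-14070).

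In WT, 7 of the 13 mitochondrial genes fell after bleo and none rose, with a median log2 fold change of -0.41. The share of genes lower overall was 36.6%. mt-Cytb, the electron-carrying core of complex III, fell most. It was at 5915, 6114 and 6103 CPM in WT vehicle and 3307, 3415 and 3365 in WT bleo (log2 fold change -0.85 ± 0.0492 (SE), adjusted p = 8.03e-10). The highest bleo library stood far below the lowest vehicle library. mt-Nd2, a proton-pumping subunit of complex I, went from 719, 726 and 789 to 482, 506 and 489.6 (-0.60 ± 0.0914 (SE), adjusted p = 3.69e-05), mt-Nd1 fell by 0.57 and mt-Nd4, mt-Nd5 and mt-Nd4l by 0.51, 0.42 and 0.57 on the log2 scale. mt-Co1, the heme and copper subunit of complex IV, went from 6633, 7055 and 6951 to 5107, 5268 and 5169 CPM (-0.41 ± 0.0620 (SE), adjusted p = 3.37e-05). Unlike these, mt-Nd6 was at 124, 128 and 139 CPM in WT vehicle and 137, 139 and 147 in WT bleo, which did not pass the test (0.11 ± 0.0887 (SE), adjusted p = 0.264). The 5 others without a call (mt-Nd3, mt-Co2, mt-Co3, mt-Atp6 and mt-Atp8) had log2 fold changes of -0.41 to -0.06, and each belongs to the uncertain set.

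In Pear1-/-, all 13 mitochondrial genes fell after bleo, with a median log2 fold change of -0.84, against 33.4% of all genes lower. The groups did not overlap in 12 of the 13, all but mt-Atp8, against 37.6% of all genes that were lower with no overlap. mt-Nd2 was at 779, 826 and 623 CPM in Pear1-/- vehicle and 293, 256 and 266 in Pear1-/- bleo, a fall to 0.365 of the vehicle level (log2 fold change -1.45 ± 0.0931 (SE), adjusted p = 3.99e-09). mt-Nd4 went from 1763, 1875 and 1597 to 857, 758 and 769 (-1.13 ± 0.0692 (SE), adjusted p = 2.30e-09), and mt-Nd4l from 26.7, 28.1 and 32.8 to 13.3, 11.5 and 9.38 (-1.35 ± 0.166 (SE), adjusted p = 5.42e-06). The Pear1-/- bleo libraries were the lowest of the 12 in mt-Nd2 and mt-Nd4, whereas those of mt-Nd4l overlapped WT bleo. mt-Nd5 went from 1804, 1836 and 1561 to 906, 829 and 842 (-1.01 ± 0.0677 (SE), adjusted p = 6.32e-09), and mt-Nd6 from 143, 145 and 116 to 84.3, 73.7 and 78.5 (-0.77 ± 0.0898 (SE), adjusted p = 2.84e-06). mt-Cytb went from 6304, 6417 and 5801 to 3019.7, 2856 and 2819.9 (-1.09 ± 0.0494 (SE), adjusted p = 7.23e-11). mt-Co1 fell least (-0.47), and the 6 genes of the uncertain set lay between -1.35 and -0.69. Of the 7 nuclear copies tested, 6 fell as well, with log2 fold changes of -0.75 for the copy of mt-Co2 to -1.57 for that of mt-Nd4l, and that of mt-Co1 missed the test (-0.47, adjusted p = 0.113). Reads of the close copies cannot be told apart from those of the mitochondrial genes themselves. Pear1-/- vehicle replicate 3 stood apart, with the lowest mt-Nd1, mt-Nd2 and mt-Co1 and the highest mt-Co2, mt-Co3 and mt-Atp6 of its group. The fall held in all 13 genes without it.

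**Figure D5:**
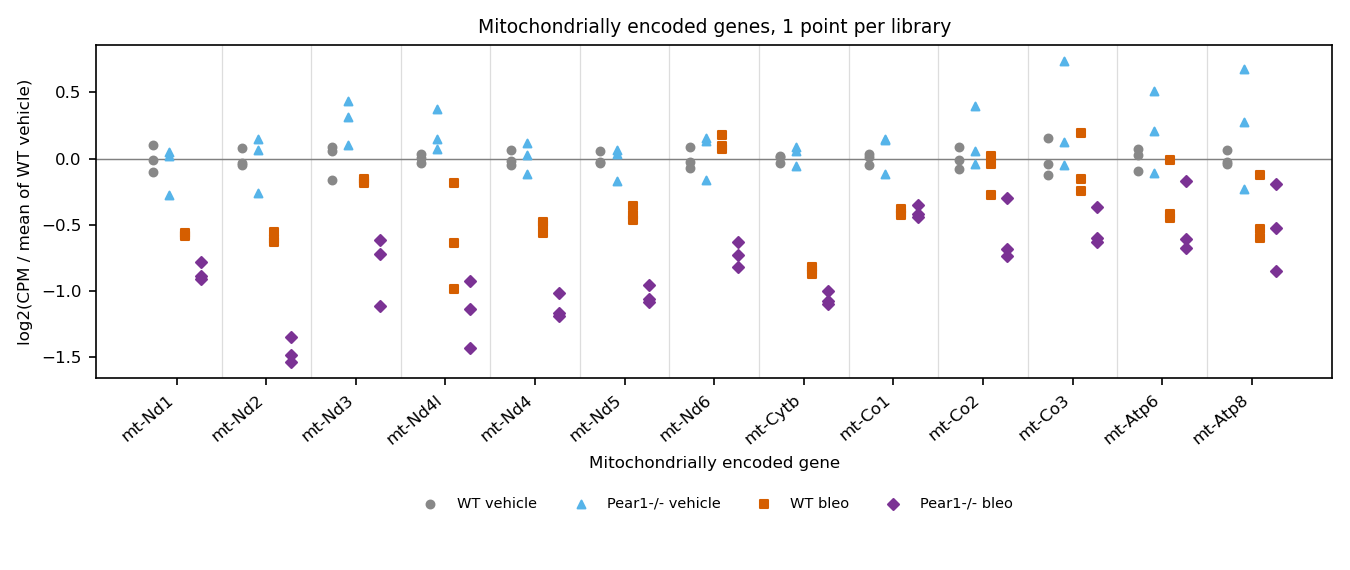
log2 of each library's CPM over the mean of WT vehicle (y axis) for the 13 mitochondrially encoded genes (x axis), with 1 point per library in the 4 groups. All Pear1-/- bleo libraries lie below 0 in all 13 genes, and WT bleo libraries lie below 0 in mt-Nd1, mt-Nd2, mt-Nd3, mt-Nd4, mt-Nd4l, mt-Nd5, mt-Cytb, mt-Co1, mt-Atp6 and mt-Atp8 and above it in mt-Nd6.

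After bleo, the mitochondrial genes were lower in the libraries labelled Pear1-/- than in WT, and the nuclear ones that differed went both ways. Of the 13, 10 were lower and none higher (median log2 difference -0.47), against 23.9% of all genes lower. Of the 89 nuclear members, 17 were higher and 5 lower (median 0.05), against 22.1% and 23.9% of all genes. With all 12 libraries in the fit the nuclear share called was thus below the background. That share depended on the libraries fitted, as given in the next paragraph. mt-Nd2 and mt-Nd6 differed most (-0.86 ± 0.0920 (SE), adjusted p = 2.13e-06 and -0.84 ± 0.0898 (SE), adjusted p = 2.09e-06). The 3 Pear1-/- bleo libraries of mt-Nd6 lay at 73.7 to 84.3 CPM and those of WT bleo at 137 to 147, with no overlap. mt-Nd5, mt-Nd4 and mt-Nd3 had log2 differences of -0.62, -0.61 and -0.63. That of mt-Cytb was -0.21 (adjusted p = 0.00218). mt-Co1 did not pass the test, at 5107, 5268 and 5169 CPM in WT bleo and 5382, 5065 and 5132 in Pear1-/- bleo (log2 difference 0.003 ± 0.0619 (SE), adjusted p = 0.984), and neither did mt-Atp6 and mt-Atp8.

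Of the 22 nuclear members called between the bleo groups, 11 were among the 36 subunits of complex I tested, 2 among its 7 assembly factors, 4 of 17 in complex IV, 3 of 15 in complex V, 1 of 8 in complex III and 1 of the 2 other genes named Atp5. Ndufaf1 was higher in Pear1-/- bleo (log2 difference 0.54 ± 0.128 (SE), adjusted p = 0.00271). Ndufa4 was at 73.5, 75.1 and 78.1 CPM in WT bleo and 115, 104 and 103 in Pear1-/- bleo (0.51 ± 0.0851 (SE), adjusted p = 0.000177), and its vehicle groups at 66.5 ± 8.57 and 76.2 ± 2.39 CPM lay near the WT bleo level. Ndufs1, the largest subunit of complex I, was at 52.1, 56.9 and 48.9 CPM in WT bleo and 67.2, 75.1 and 69.4 in Pear1-/- bleo (0.42 ± 0.0801 (SE), adjusted p = 0.00049). Ndufb9, of which 17.02% of the words lie in the annotated gene Gm49356, was also higher (0.39 ± 0.0841 (SE), adjusted p = 0.00139), as was Uqcrc1 (0.34 ± 0.0796 (SE), adjusted p = 0.00244). The 5 lower ones were Cox6a2, Cox7a2l, Cox8a, Ndufa3 and Atp5sl, with Ndufa3 at -0.47 ± 0.103 (SE), adjusted p = 0.00156. The call of Cox6a2 rests on 4 to 12 counts in WT bleo and 1 to 5 in Pear1-/- bleo. This gene passed the filter on low counts through the vehicle libraries, so its call supports nothing. Leaving out any 1 of the 6 bleo libraries left 9 to 12 nuclear calls, and a fit of the 6 bleo libraries alone gave 50 (36 higher and 14 lower). Over all genes these fits called 6366 to 6454 and 9840, against 8012 of 17418 with all 12 libraries, so the count of nuclear calls moved by more than that of all genes, while 7 to 10 mitochondrial genes were lower without any 1 library.

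Between the vehicle groups no member passed the test. None of the 102 did so (edgeR), against 0.855% of all genes higher and 3.65% lower. At an unadjusted p under 0.05, 22 nuclear and 0 mitochondrial members differed, against 31.6% of all genes, and DESeq2 and limma called none. The median log2 difference was 0.13 over the nuclear and 0.06 over the mitochondrial members. The result rests on WT vehicle replicate 2. Without it, 61 nuclear members (59 higher in Pear1-/-) and 6 mitochondrial members passed, but so did 8714 genes in all, 59.5% of them higher.

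The effect of bleo on the mitochondrial genes differed between the genotypes by the interaction term, which uses all 4 groups and so shares its libraries with every comparison above. It was lower in Pear1-/- than in WT for 9 of the 13 (median -0.61), against 19.1% of all genes lower. Among these were mt-Nd3 (-0.92 ± 0.212 (SE), adjusted p = 0.00356), mt-Nd6 (-0.89 ± 0.126 (SE), adjusted p = 7.11e-05) and mt-Nd2 (-0.86 ± 0.129 (SE), adjusted p = 0.000124). For 17 nuclear members the effect differed, higher for 3 and lower for 14, against 17.9% and 19.1% of all genes. The 3 higher ones were Ndufaf1 (0.85 ± 0.206 (SE), adjusted p = 0.00502), Ndufs1 (0.48 ± 0.114 (SE), adjusted p = 0.00444) and Ndufa11 (0.36 ± 0.118 (SE), adjusted p = 0.0253). That nuclear split turned with the scaling. With total counts in place of TMM (the trimmed mean of M-values, which scales libraries to the bulk of genes) it was 14 higher and 6 lower, while the mitochondrial genes stayed at 8 lower and none higher. Total counts also moved the median of all genes by 0.15, and 61.9% of all calls were then higher in place of 48.3%. Between 8 and 41 nuclear members were called when 1 library was left out, 41 without WT vehicle replicate 2, where 8849 of all genes were called in place of 6442.

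Genes around the chain were described from 6 lists, whose counts are to be read against the 31.4% of all genes higher and 36.6% lower in WT and the 28.9% and 33.4% in Pear1-/-. Of the carriers for adenine nucleotides and phosphate, the porins and the uncoupling proteins, 7 of 9 tested rose and 1 fell in WT (median log2 fold change 0.68), and 8 rose and 1 fell in Pear1-/- (0.94). The fall was that of Ucp3, at 0.647 to 1.25 CPM in WT vehicle and 0.231 to 0.346 in WT bleo. It passed the filter on low counts through the vehicle libraries, so the test of bleo supports nothing for it. Ucp2, an uncoupling protein abundant in leukocytes, rose most in WT, from 378, 526 and 359 to 1595, 1550.3 and 1584 CPM, and Atpif1, the inhibitor of ATP synthase, rose by 1.41. Of the 14 tricarboxylic acid cycle genes, 9 were higher and 3 lower in WT (median 0.38), with rises in Fh1 (fumarate hydratase, 1.04) and Cs (citrate synthase, 0.69), and 10 were higher in Pear1-/- (median 0.46). Of the assembly factors outside the name pattern, 12 of 34 were higher, a share close to the 31.4% of all genes, and 4 lower in WT (median 0.13) and 18 higher and 1 lower in Pear1-/- (median 0.30). Uqcc3 and Sdhaf2, factors for complexes III and II, rose by 0.98 and 0.92 in WT, and Sco1, a copper chaperone of complex IV, had a log2 fold change of -0.70. Taco1, which promotes translation of mt-Co1, rose by 2.36 in Pear1-/-, and was higher by 0.97 in Pear1-/- bleo than in WT bleo. Of the electron carriers and other chain genes outside the name pattern, 3 of 9 rose in WT, again close to the share of all genes, and 1 fell. Cyc1 (cytochrome c1) was at 0.66 and Cycs (cytochrome c) at 0.57. Hccs, which attaches heme to cytochrome c, rose by 1.11 in Pear1-/-. The 1 that fell was Aox1, an aldehyde oxidase, which changed most in that list, with log2 fold changes of -2.26 and -1.75.

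Regulators of the chain and of mitochondrial DNA moved both ways. Of 13 biogenesis regulators tested, 6 were higher and 5 lower in WT (median -0.05). Esrrg, a member of this list, was at 2.60, 1.93 and 3.11 CPM in WT vehicle and 0.208, 0.231 and 0.115 in WT bleo. It passed the filter on low counts through the vehicle libraries, so the test of bleo supports nothing for it. Ppargc1b, a coactivator, rose by 1.81 in WT and 1.74 in Pear1-/-, and Ppara, a nuclear receptor, fell by 2.06 and by 1.42 on the log2 scale. Nrf1 and Gabpa, the factors of 2 of the motifs above, had log2 fold changes of -0.33 and -0.23 in WT, and log2 differences of 0.25 and 0.44 between the bleo groups. Yy1, the factor of the other motif, went from 7.52, 12.3 and 9.32 to 24.3, 25.6 and 27.1 CPM in WT (1.39 ± 0.185 (SE), adjusted p = 9.74e-06) and from 11.9, 13.8 and 8.21 to 13.4, 9.59 and 11.6 in Pear1-/- (0.02 ± 0.191 (SE), adjusted p = 0.937), and was lower in Pear1-/- bleo than in WT bleo (log2 difference -1.15). Of 23 genes for the upkeep and expression of mitochondrial DNA, 6 were higher and 4 lower in each genotype after bleo (medians -0.08 in WT and 0.13 in Pear1-/-). Polg2, the accessory subunit of the mitochondrial DNA polymerase, was at 17.6, 22.6 and 21.0 CPM in WT vehicle and 7.70, 7.40 and 8.99 in WT bleo (-1.35 ± 0.156 (SE), adjusted p = 2.15e-06) and at 26.1, 27.5 and 19.98 and then 6.52, 7.46 and 8.74 in Pear1-/- (-1.70 ± 0.151 (SE), adjusted p = 1.62e-07). Polg, the catalytic subunit, had log2 fold changes of -0.46 and -0.75. Slirp, which binds and stabilises mitochondrial messages, rose by 1.29 and 0.97. Tfam, which packages the mitochondrial genome, had log2 fold changes of -0.30 (adjusted p = 0.0886) and -0.19 (adjusted p = 0.247), and was higher by 0.47 in Pear1-/- bleo than in WT bleo.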

How the data were processed

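Libraries of sorted cells were made from full-length cDNA (SMART-Seq v4), and the study's methods give HISAT2 for alignment to GRCm38. The program that counted reads was not given in the sources used here. The authors deposited raw counts for 40760 genes, and also a normalized signal, which is the count over a DESeq2 size factor and was used for limma only (log2 of the value plus 1). Groups were taken from the labels. Genes were kept by filterByExpr (17418), scaled by TMM and tested with edgeR's quasi-likelihood test, with 1 mean per group, all 12 libraries in the fit and Benjamini-Hochberg adjustment over all genes kept, at 0.05 (R 4.3.3, edgeR 4.0.16, limma 3.58.1, DESeq2 1.42.0). CPM use TMM-scaled totals, and a count of 3, worth 0.291 to 0.410 CPM, was the floor, which covers counting error only. All replicate pairs differed by more than counting noise (chi-square per degree of freedom of 1.34 to 25.3). Levels per kilobase use the union of exons (GENCODE M21), from which gene coordinates were also taken, and 38 symbols stood in more than 1 row. Promoters came from RefSeq. On counts simulated for WT bleo against WT vehicle (16605 genes), the test found 53% of 100 genes changed by 0.4 and 98% of 100 changed by 0.7 on the log2 scale, and called 0.0914% of unchanged genes. The simulation gave every gene the same dispersion, had no outlying library and changed only these genes. Its rates therefore need not hold for the real counts. Named genes were, for each comparison, up to 5 members with the largest called rise and 5 with the largest called fall (3 for the interaction) among those whose mean log2 CPM was 1 or more and with, but for the interaction, no overlap between groups, the leading subunit of each complex and the isoform pairs. An item that this rule names is not reported here. Other genes are named to complete a complex or a pathway list. The members, lists and tests were chosen with earlier results of these data known, and the pericyte markers after the values of Cox4i2 and Ndufa4l2. Alternatives were other scalings, tests and filters, copies of mitochondrial genes added to their counts, a replicate block and leaving out libraries.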

Additional observations from a re-analysis of the deposited data

Results flagged for a closer look

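The change after bleo in Pear1-/- minus that in WT, as a log2 difference, passed the interaction test (edgeR, adjusted p under 0.05) for 26 of the 102 members tested, 3 higher and 23 lower, against 17.9% of all genes higher and 19.1% lower. The nuclear share, 17 of 89, was below that of all genes. Lower values mean a weaker rise or a deeper fall in Pear1-/-. Among the 13 mitochondrial genes it was -0.92 for mt-Nd3, -0.89 for mt-Nd6, -0.86 for mt-Nd2, -0.78 for mt-Co3, -0.78 for mt-Nd4l, -0.62 for mt-Nd4, -0.61 for mt-Co2, -0.60 for mt-Nd5 and -0.24 for mt-Cytb. In complex IV it was -0.57 for Cox5a, -0.53 for Cox7b, -0.50 for Cox8a, -0.46 for Cox7a2l and -0.35 for Cox7c. In complex III it was -0.47 for Uqcrh, -0.38 for Uqcrb and -0.34 for Uqcrfs1, and among the genes named Atp5 it was -0.55 for Atp5sl, -0.40 for Atp5e and -0.39 for Atp5g2. In complex I it was -0.80 for Ndufa3, -0.46 for Ndufa6, -0.38 for Ndufab1, 0.36 for Ndufa11 and 0.48 for Ndufs1, and it was 0.85 for the assembly factor Ndufaf1. The nuclear values depend on the processing. With total counts in place of TMM 14 nuclear members were higher and 6 lower, in place of 3 and 14, while the mitochondrial genes were at 0 higher and 8 lower, and limma on the log2 of the deposited normalized values gave 9 nuclear calls (3 higher and 6 lower) and 5 mitochondrial calls. Of these 9 mitochondrial genes, mt-Nd6, mt-Nd3, mt-Co2 and mt-Co3 had no call in WT, and the last 3 have uncertain counts. Reads of mt-Nd6 cannot be told apart from antisense RNA of its neighbours. mt-Nd6 was at 130.3 ± 7.63 CPM (mean ± SD, n = 3) in WT vehicle, 141 ± 5.31 in WT bleo, 135 ± 16.1 in Pear1-/- vehicle and 78.8 ± 5.30 in Pear1-/- bleo.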

How the results depend on the processing

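Of the counts of members called, those for bleo in each genotype moved least with the processing. Leaving out any 1 of the 6 libraries of a comparison left 76 to 83 nuclear and 6 to 8 mitochondrial calls in WT, and 66 to 74 and 13 in Pear1-/-. The same gave 9 to 12 and 7 to 10 calls between the bleo groups, 0 to 61 and 0 to 6 between the vehicle groups, and, over all 12 libraries, 8 to 41 and 8 to 12 for the interaction. The median nuclear minus the median mitochondrial log2 fold change, 1.01 in WT, 1.38 in Pear1-/- and 0.52 between the bleo groups, ran over 0.93 to 1.11, 1.34 to 1.48 and 0.41 to 0.64, and over -0.02 to 0.13 between the vehicle groups. With only the 5 mitochondrial genes of low shared sequence it was 1.18, 1.55 and 0.66. Between the bleo groups, a fit of those 6 libraries alone gave 50 nuclear calls in place of 22, and 9840 calls over all genes in place of 8012. Between the vehicle groups, with 0 calls, total counts gave 1 nuclear call, no filter on low counts gave 21 nuclear and 2 mitochondrial calls, and leaving out both WT vehicle replicate 2 and Pear1-/- vehicle replicate 3, an alternative chosen after seeing the data, gave 56 and 8 and turned the sign of the log2 difference of mt-Nd5 to 0.10 and of mt-Nd2 to 0.16. Without 1 library these were -0.0309 to 0.0941 and -0.0370 to 0.151. limma on the log2 of the deposited normalized values plus 1 gave 9 nuclear and 5 mitochondrial calls for the interaction in place of 17 and 9. The cause of these shifts was not tested.

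Over all genes, the vehicle comparison gave 784 calls with edgeR, 1484 with DESeq2, 33 with limma, 1943 with total counts and 3607 without the filter. It gave 8714 without WT vehicle replicate 2, 8581 also without Pear1-/- vehicle replicate 3, and 0 without any 1 of the other 5 vehicle libraries or with the 6 vehicle libraries fitted alone. Of its calls 19.0% were higher, against 6.74% with total counts, 63.9% without the filter, 30.1% with DESeq2, 3.03% with limma and 59.5% without WT vehicle replicate 2, while the interaction without WT vehicle replicate 2 gave 8849 calls in place of 6442. Of the calls of the interaction 48.3% were higher and, with total counts, 61.9%. Total counts moved the median of all genes by -0.15 in the vehicle comparison and by 0.15 in the interaction, and leaving out the filter by 0.13 in WT. Same-numbered libraries did not deviate together (correlations of -0.161 to 0.0997, 3 of 12 libraries correlating best with their own number), so the replicate number marks no pairing. With the replicate block the calls were 79 nuclear and 7 mitochondrial in WT, 74 and 13 in Pear1-/-, 20 and 10 between the bleo groups, 0 and 0 between the vehicle groups and 15 and 9 for the interaction. Depth limits Cox6a2 and Cox8b, with at most 24 and 15 counts.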

Other observations

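The 2 mitochondrial ribosomal RNAs, which are not protein coding and so not members, took 1.20 ± 0.0734% of counts for WT and 1.29 ± 0.168% for Pear1-/- after vehicle, and 1.75 ± 0.0510% and 0.951 ± 0.0388% after bleo (mean ± SD, n = 3). Their share was thus highest in WT bleo and lowest in Pear1-/- bleo with no overlap with the other groups, while the share of the 13 mitochondrial messages was lower in both bleo groups than in both vehicle groups.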
